A study of Chamaelirium luteum with 2 samples.

Results

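Scaffolds 10 and 12 of *Cha. luteum* carry their centromere close to the scaffold start, so that nearly all of their non-centromeric sequence lies in a single long arm. Accessible regions were taken as members when their summit, the base with the highest signal, lay more than 2 Mb past the end of the listed centromere interval. Of 39233 peaks in replicate 1, 1852 were members, which was 4.72% of the list. Of 41385 peaks in replicate 2, 2019 were members, which was 4.88%. The arm of scaffold 10 ran from position 15258379 to 31882672 and held 1007 and 1118 members over 16.6 Mb. The arm of scaffold 12 ran from position 11961966 to 24971802 and held 845 and 901 members over 13.0 Mb. Each arm made up 52.1% of its scaffold. The 22 scaffolds used by the paper outnumber the chromosomes of a haploid set, and 8 of them have a listed centromere. A scaffold can thus be part of a chromosome, and its end need not be a chromosome end. The word arm here stands for the stretch on the scaffold. Positions are those of the authors' assembly, counted from 1.

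The data are 2 ATAC-seq libraries of nuclei from fresh leaves of *Chamaelirium luteum*, a plant whose chromosomes have very large single centromeres. Both libraries belong to 1 group, with no treatment other than the transposase reaction. The labels give them as replicates 1 and 2 and, like the methods, do not say which plants gave them. The paper's reporting summary states, for sequencing in general, that tissue was taken at random from different plants under the same greenhouse conditions. It does not name these libraries, so the SD between them may still be technical. The labels of both replicates carry the code A112, whose meaning they do not state, while the deposited peak names of replicate 2 carry the code A114; the label was followed.

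In ATAC-seq, the Tn5 transposase inserts adapters mainly into DNA that nucleosomes leave free, and promoters and other regulatory sequences of active genes are usually among the open regions. Plant chromosome arms carry most of the genes and alternate between gene-rich stretches and stretches of transposable elements, whereas a satellite-based centromere such as the *Chama* arrays of this species is an array of short tandem repeats. Leaf tissue holds several cell types, and a bulk library averages over them. The peak lists carry no gene names, so the leaf identity could not be checked against marker genes and peaks were not placed in genes or repeats.

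The read totals are unknown. The number of fragments at each summit and the local background, which is the number of fragments that the peak caller modelled there, were solved from the deposited fold enrichment and p-value. The fewest fragments at a member's summit were 11 in both libraries, so regions with less signal are not listed. The peaks passed a threshold on q, so more fragments were needed where the local background was higher. A background at the genome-wide level of the library (3.38 fragments in replicate 1 and 3.18 in replicate 2) was carried by 11.7% of the members in each library, against 14.3% and 13.9% of all peaks. With only 2 libraries, an exact sign-flip test cannot give a p below 0.5, so no p-value is given and differences are set against the spread between the libraries.

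Accessible regions were spread over the whole of both arms. The arm of scaffold 10 held 60.6 summits per Mb in replicate 1 and 67.3 in replicate 2 (63.9 ± 4.72, mean ± SD, n = 2). The arm of scaffold 12 held 65.0 and 69.3 summits per Mb (67.1 ± 3.04, n = 2). In both libraries the arm of scaffold 12 was the denser one, by 4.38 and 2.00 summits per Mb (3.19 ± 1.68, n = 2), but the densities of the arms overlapped between libraries. Peaks covered 2.74 ± 0.164% of the arm of scaffold 10 and 2.90 ± 0.169% of the arm of scaffold 12 (n = 2). Replicate 2 listed more members than replicate 1 on each arm, with 11.02% more on scaffold 10 and 6.63% more on scaffold 12. Over all peaks it listed 5.49% more.

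Against the other scaffolds, neither arm stood at an extreme of density. Measured over the 20 stretches of at least 1 Mb that lie on scaffolds without a listed centromere or more than 2 Mb from one, the arm of scaffold 12 ranked 8 and the arm of scaffold 10 ranked 12 from the densest. On scaffolds 1, 3, 4 and 5 the sequence on both sides of the centromere was pooled, so that each scaffold counted as 1 stretch. The other 18 stretches ran from 42.2 summits per Mb on scaffold 9 to 72.8 on scaffold 14, with a median of 65.1. The joint density of both arms, 65.3 ± 3.98 summits per Mb, exceeded that of the corresponding stretches of scaffolds 1, 3, 4 and 5 (59.9 ± 2.36) by 4.23 in replicate 1 and by 6.53 in replicate 2 (5.38 ± 1.63, n = 2). The difference was mostly with scaffolds 4 (56.9 ± 2.59) and 5 (55.7 ± 2.32), whereas scaffold 1 (63.8 ± 2.57) and scaffold 3 (62.6 ± 1.94) lay within 1 SD of the arm of scaffold 10. Among peaks that overlapped the other library by at least 50% of both peaks, the joint difference was 2.72 summits per Mb. From the 14 scaffolds without a listed centromere (64.3 ± 2.02), the joint density differed by −0.421 in replicate 1 and by 2.35 in replicate 2, which is a change of sign between the libraries. Without scaffold 9, which stood apart, those scaffolds held 66.8 ± 2.04 summits per Mb, and the arms differed from them by −2.89 in replicate 1 and by −0.135 in replicate 2.

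**Figure D1:**
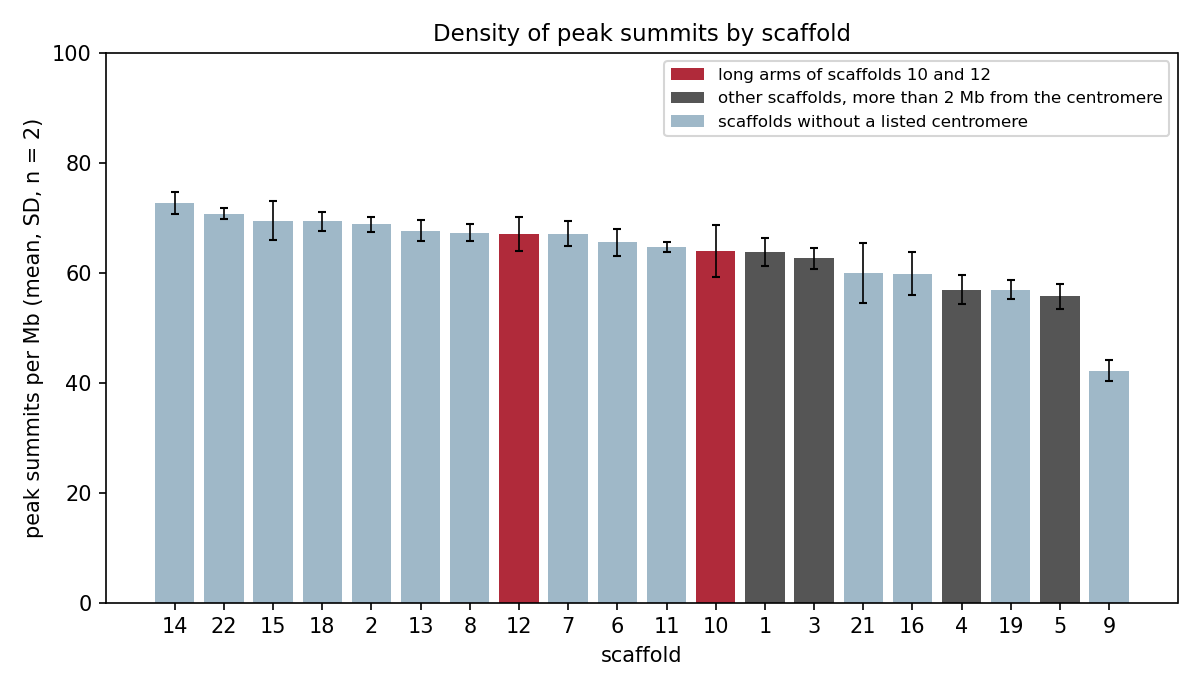
Peak summits per Mb (vertical axis) for 20 stretches (horizontal axis, by scaffold number), with bars giving the mean of the libraries and error bars the SD (n = 2). The arms of scaffolds 12 (67.1) and 10 (63.9), in red, rank 8 and 12, between scaffold 14 (72.8) and scaffold 9 (42.2).

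Along the arm of scaffold 10, the density was lower over the first 5 Mb than in most of the windows farther out. The 2 windows of 1 Mb next to the centromere, which hold no members, held 32 and 40 summits in replicate 1 and 43 and 49 in replicate 2. The first 3 windows of members, from 2 to 5 Mb past the centromere end, held 47, 44 and 49 summits in replicate 1 and 59, 47 and 57 in replicate 2. The next window, from 5 to 6 Mb (18258379–19258378), was the fullest of the arm, with 86 summits in replicate 1 and 95 in replicate 2. From 8 Mb outwards, every one of the 10 full windows held between 55 and 75 summits in replicate 1 and between 60 and 79 in replicate 2. The remaining stretch before the scaffold end, shorter than 1 Mb, held 36 and 38 summits, or 59.3 ± 2.27 per Mb (n = 2), so density did not drop off at the scaffold end.

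Between these stretches, 1 window broke the run. From 7 to 8 Mb (20258379–21258378) the arm of scaffold 10 held 40 summits in replicate 1 and 53 in replicate 2, a count of 46.5 ± 9.19 against a median of 63.8 over its 16 full windows. The other sparse window, from 3 to 4 Mb (16258379–17258378), held 44 and 47. By the mean of the libraries, the second fullest window of the arm lay near its end, from 17 to 18 Mb (30258379–31258378), with 75 and 79 summits; other windows tied with it in a single library.

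The arm of scaffold 12 alternated more strongly. Its window from 2 to 3 Mb past the centromere end held 73 summits in replicate 1 and 77 in replicate 2. The next window (12961966–13961965) held 32 and 36, the fewest of the arm. It was followed by 81 and 93 summits from 4 to 5 Mb (13961966–14961965) and by 84 in each library from 5 to 6 Mb. From 7 to 10 Mb, counts fell to 51, 32 and 50 in replicate 1 and to 54, 39 and 49 in replicate 2. The window from 10 to 11 Mb (19961966–20961965) was the fullest, with 91 and 93 summits. The last 2 full windows, from 13 to 15 Mb, held 83 and 75 summits in replicate 1 and 90 and 83 in replicate 2. The remaining windows were intermediate, with 68 and 77 summits from 6 to 7 Mb, 67 and 74 from 11 to 12 Mb, and 58 and 52 from 12 to 13 Mb. In replicate 2 no full window held a count between 54 and 74, whereas replicate 1 had windows of 58, 67, 68 and 73 summits there.

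**Figure D2:**
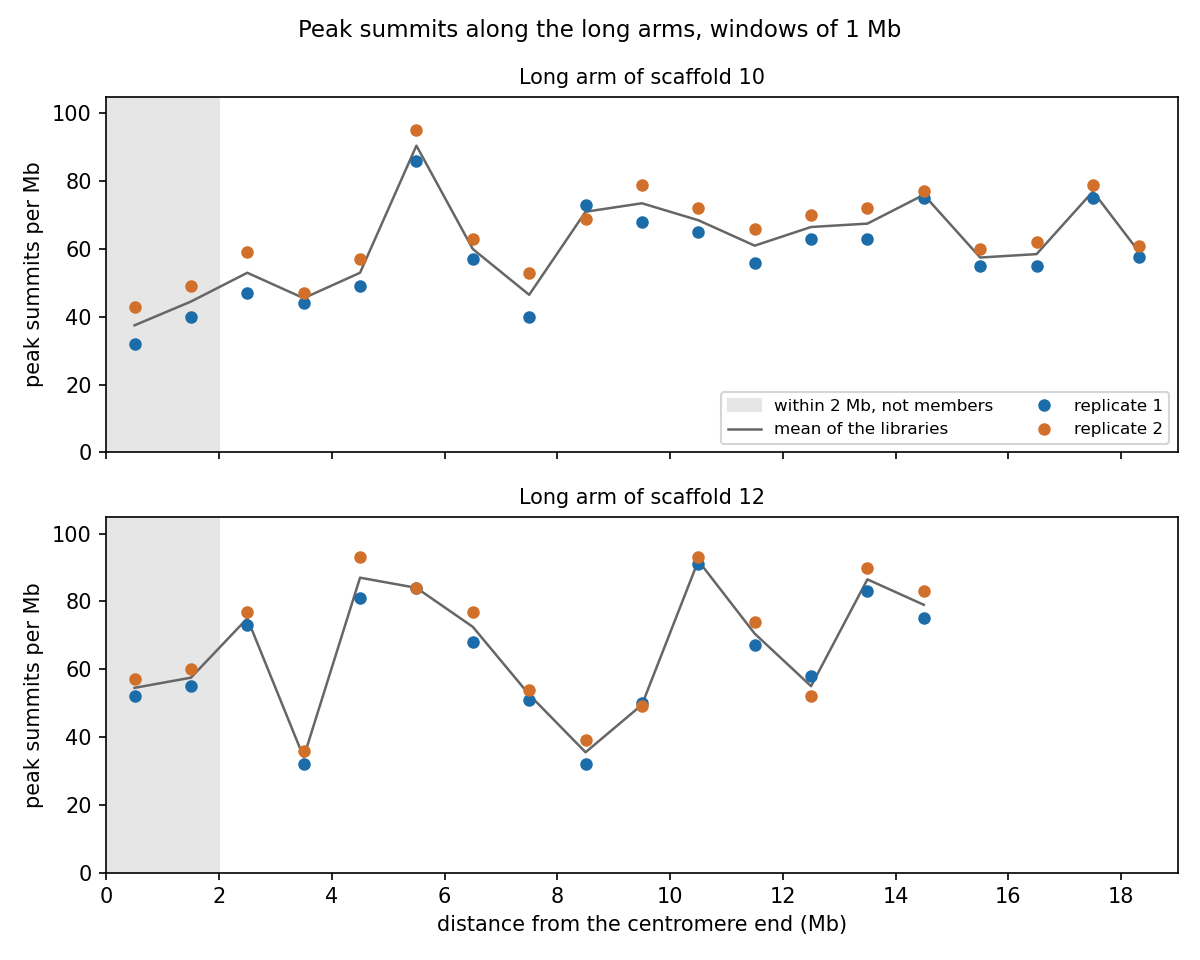
Peak summits per Mb (vertical axis) in consecutive 1-Mb windows against the distance from the centromere end in Mb (horizontal axis), for each library (points) and their mean (line); the last point on scaffold 10 is a window shorter than 1 Mb. On scaffold 10 the counts from 8 Mb outwards stay between 55 and 79, and on scaffold 12 they swing between 32 and 93.

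The difference in unevenness between the arms was larger than the spread between libraries. The ratio of the variance to the mean, taken over the counts of the full 1-Mb windows, was 2.35 ± 0.422 on scaffold 10 and 5.89 ± 0.283 on scaffold 12 (n = 2), and the difference was 3.04 in replicate 1 and 4.04 in replicate 2 (3.54 ± 0.705). With the threshold raised to a −log10 q of 5 it was 1.15 and 2.94. Both libraries were counted in the same windows, so their SD does not cover the uncertainty of a variance over 16 and 13 windows. Scaffold 12 ranked 3 and scaffold 10 ranked 17 among the 20 stretches, where the other 18 had a median of 3.89. The libraries ordered the windows alike, with a Spearman correlation of their counts of 0.950 over the 29 full windows of both arms (0.948 on scaffold 10 over 16 windows and 0.963 on scaffold 12 over 13 windows). The windows are neighbours on 2 scaffolds and both libraries come from 1 assembly and 1 mapping procedure, so this is a description. Replicate 2 had the higher count in 25 windows, the lower in 3 and the same in 1.

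The distal and proximal parts of the arms differed little in density. When each arm was divided into an inner and an outer part of equal length, the inner part of scaffold 10 held 57.1 and 64.5 summits per Mb and the outer part 64.003 and 70.02. The outer-to-inner ratio was 1.12 in replicate 1 and 1.09 in replicate 2 (1.10 ± 0.0242, n = 2). It rests on 475 and 536 inner against 532 and 582 outer summits, and the SD between the libraries does not cover their counting error. The increase did not continue to the scaffold end: in 5 parts of equal length, from the centromere outwards, the density was 56.7 ± 4.89, 61.4 ± 5.10, 68.3 ± 5.95, 69.8 ± 3.83 and 63.5 ± 3.83 per Mb (n = 2). On scaffold 12 the inner part held 62.4 and 67.6 summits per Mb and the outer part 67.5 and 70.9, a ratio of 1.08 and 1.05 (1.06 ± 0.0237, n = 2). This ratio depended on where the arm was started: from 1 Mb past the centromere it was 1.03 in replicate 1 and 0.998 in replicate 2, and from 3 Mb it was 1.22 and 1.15. No outward rise on scaffold 12 can therefore be stated. The Spearman correlation between window count and distance from the centromere was 0.376 and 0.417 on scaffold 10 (16 windows) and 0.146 and 0.116 on scaffold 12 (13 windows), given as a description over neighbouring windows.

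The peaks of the inner and outer parts of scaffold 12 also differed in width and enrichment. Its inner part had a median peak width of 331.5 bp in replicate 1 and 336.5 bp in replicate 2, and its outer part 393 and 392 bp. The median fold enrichment was 4.34 and 4.70 in the inner part and 5.07 and 5.40 in the outer part. Of the inner members 75.3 ± 4.61% overlapped a peak of the other library, against 81.3 ± 3.91% of the outer ones (n = 2). For width and fold, both library medians of the outer part were above both of the inner part. Single 1-Mb windows overlapped, so this was not a clean step along the arm. Averaged over the libraries, the median width was 388 bp from 5 to 6 Mb (inner) and 372 bp from 13 to 14 Mb (outer). The median fold was 5.45 from 3 to 4 Mb (inner) and 4.78 from 11 to 12 Mb (outer). Between the parts, the difference in median width was 61.5 and 55.5 bp, and that in median fold was 0.732 and 0.694. Among peaks that overlapped the other library by at least 50% of both peaks, these were 40 and 11 bp and 0.606 and 0.304. The arm of scaffold 10 showed no such difference. Its median widths were 390 and 363 bp in the inner part and 366.5 and 360 bp in the outer part. Its median folds were 4.57 and 4.78 against 4.56 and 4.78. On both arms the share of members at the genome-wide background was higher in the inner part, at 14.5% and 14.7% against 6.95% and 8.42% on scaffold 10 and at 16.7% and 13.9% against 9.79% and 10.4% on scaffold 12.

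The sparse middle of scaffold 12 was described further after its counts had been seen. Of 5 parts of equal length, the middle one (17165900–19767867) held 111 summits in replicate 1 and 113 in replicate 2, or 43.0 ± 0.544 per Mb (n = 2). The other 4 parts, from the centromere outwards, held 62.8 ± 2.99, 78.2 ± 5.71, 73.6 ± 3.53 and 77.8 ± 2.45 per Mb. The middle part thus had 0.605 and 0.574 times the density of the rest of the arm, whereas on scaffold 10 the middle part had 1.07 and 1.10 times that of the rest. The background in this middle part had a median of 4.48 and 4.36 fragments, below the 5.57 to 6.72 fragments of the other parts. At 27.9% and 23.9%, the share of its members at the genome-wide background was above the 7.03% to 17.7% of the other parts. Its median fold enrichment, 5.16 and 5.73, was the highest of the 5 parts in each library, and the distance between neighbouring summits had a median of 10.9 and 11.3 kb.

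Over the 13 full windows of scaffold 12, a lower count went with a lower median background, with a Spearman correlation of 0.746 in replicate 1 and 0.744 in replicate 2. It also went with a higher median fold, with a correlation of −0.495 and −0.623. On scaffold 10 (16 windows), the correlations were 0.0575 and 0.395 with the background and −0.217 and −0.184 with the fold. The points share their library and the background enters the fold by its definition, so these values describe the windows. The lowest background of scaffold 12 lay in its window from 8 to 9 Mb (17961966–18961965), with 3.92 and 3.66 fragments, and this window held 32 and 39 summits. The lowest of scaffold 10 lay from 3 to 4 Mb, with 3.66 fragments in each library. The part of the background in these counts was not tested.

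**Figure D3:**
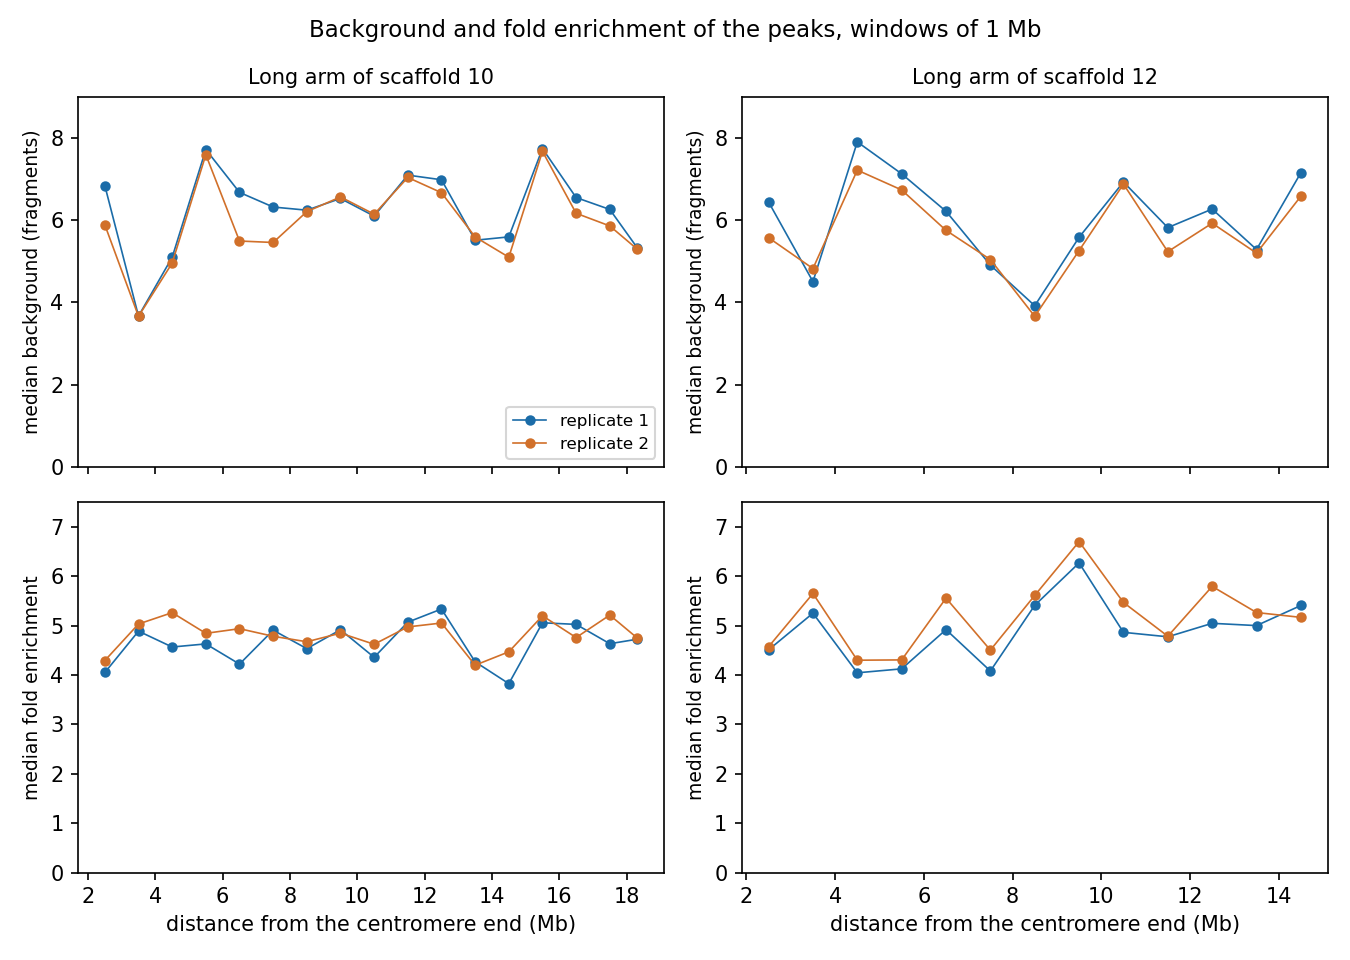
Median background in fragments (upper row) and median fold enrichment (lower row) of the members in 1-Mb windows against the distance from the centromere end in Mb, for scaffold 10 (left) and scaffold 12 (right), with 1 line per library. On scaffold 12 the background is lowest from 8 to 9 Mb (3.92 and 3.66 fragments) and the fold is highest in the next window outwards (6.27 and 6.70).

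The spacing of members was uneven. The median distance between neighbouring summits was 9.10 kb in replicate 1 and 8.13 kb in replicate 2 on scaffold 10, and 8.80 and 8.22 kb on scaffold 12. Over both arms it was 8.59 ± 0.533 kb, against 9.21 ± 0.298 kb on the stretches of scaffolds 1, 3, 4 and 5. The difference was −0.455 kb in replicate 1 and −0.787 kb in replicate 2. The 9.10 kb of scaffold 10 in replicate 1 exceeded the 8.998 kb of those scaffolds in replicate 2, so the ranges overlapped between libraries. The mean distance was 15.6 ± 1.15 kb on scaffold 10 and 14.9 ± 0.679 kb on scaffold 12, well above the median. The SD of the distances was 1.34 ± 0.0140 times their mean over both arms, against 1.42 ± 0.00143 times on scaffolds 1, 3, 4 and 5.

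The distances covered a wide range. On scaffold 10, 7.43 ± 0.2498% of them were at most 1 kb, 10.6 ± 1.21% lay between 1 and 2 kb and 14.2 ± 0.485% between 2 and 5 kb. The classes from 5 to 10 kb and from 10 to 20 kb held 21.7 ± 0.658% and 21.8 ± 0.545%, those from 20 to 50 kb held 18.6 ± 1.44%, and 5.72 ± 0.623% were longer than 50 kb. Scaffold 12 gave 8.21 ± 0.616% at most 1 kb and 4.71 ± 0.376% longer than 50 kb, and the means of its other classes lay within 1 percentage point of those of scaffold 10. On scaffolds 1, 3, 4 and 5, 6.19 ± 0.404% were at most 1 kb and 6.38 ± 0.546% longer than 50 kb. The shortest distance was 314 bp, in replicate 1 on scaffold 10. The longest were 162 and 166 kb on scaffold 10 and 228 and 219 kb on scaffold 12.

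**Figure D4:**
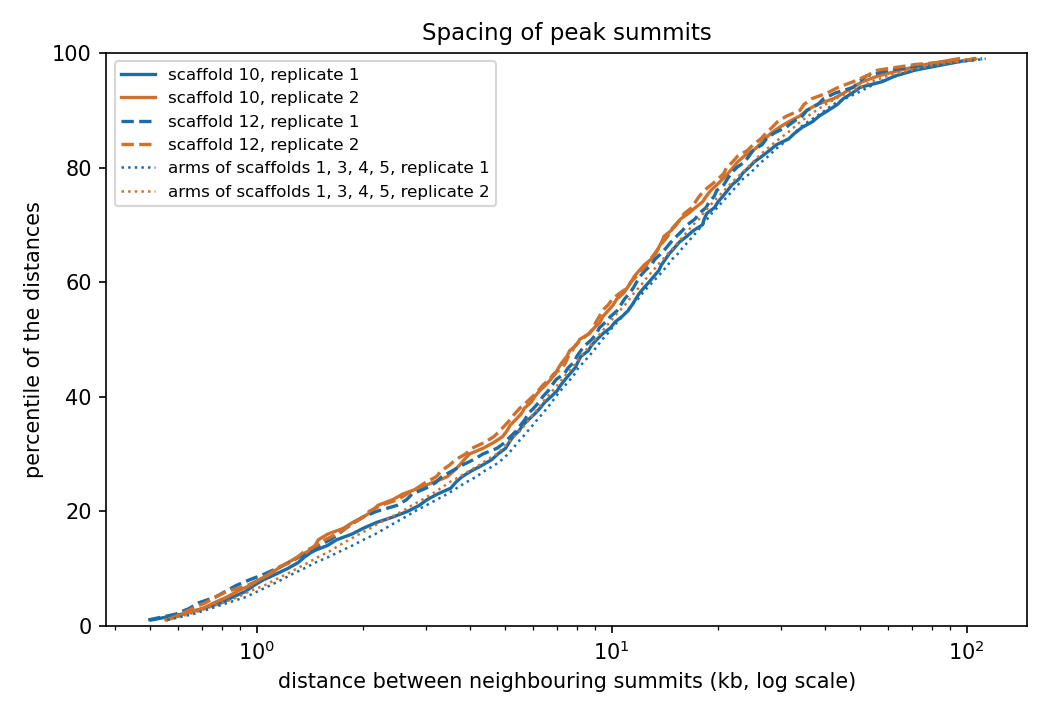
Percentile (vertical axis) of the distances between neighbouring summits in kb (horizontal axis, log scale), for each arm and library and for the stretches of scaffolds 1, 3, 4 and 5. The curves of both arms run close together, with medians from 8.13 to 9.10 kb, and those of the other scaffolds lie slightly to the right at equal library, apart from crossings at some percentiles.

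Tight clusters were small. Groups in which consecutive summits lay within 1 kb of each other and that held at least 3 summits numbered 6 and 5 on scaffold 10 and 4 and 5 on scaffold 12, and none held more than 3 summits. At the other end, 7 and 3 members of scaffold 10 and 2 and 3 members of scaffold 12 had no other member within 50 kb, the end members of the arms aside. In windows of 100 kb, the fullest of scaffold 10 (18358379–18458378) held 17 summits in each library and that of scaffold 12 (24261966–24361965) held 15 and 16, against medians of 6 and 7 summits and of 6.5 and 7 summits. The fullest 100 kb of scaffold 10 lay within its fullest 1 Mb.

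Stretches free of peaks in both libraries were found along the whole length of the arms. Reads that map to several places were discarded before peaks were called, so sequence to which no read maps uniquely can hold no peak. The part of this filter in the peak-free stretches was not tested. No window of 500 kb was empty: the lowest counts were 16 and 19 summits on scaffold 10 (33 windows) and 15 in each library on scaffold 12 (26 windows). Of the windows of 100 kb, 4 of 166 on scaffold 10 were empty in each library, 2 of them in both. On scaffold 12, 6 of 130 were empty in replicate 1 and 4 in replicate 2, and the 4 were empty in both. Over both arms 3.38% and 2.70% of these windows were empty, against 4.22% and 3.78% on scaffolds 1, 3, 4 and 5 and 5.10% and 4.62% on the scaffolds without a listed centromere. Without scaffold 9 the latter had 2.63% and 2.32%, fewer than the arms in both libraries. Scaffold 12 in replicate 1, at 4.62%, was also above the scaffolds 1, 3, 4 and 5.

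With the peaks of both libraries pooled, scaffold 10 had 1291 intervals without a peak, with a median length of 6.71 kb, and scaffold 12 had 1056, with a median of 6.60 kb. Intervals longer than 50 kb numbered 47 and 31 and made up 21.9% and 20.7% of the arms. On scaffold 10, 24 of them lay in the inner and 23 in the outer part of the arm. On scaffold 12, 15 lay in the inner and 16 in the outer part. Intervals longer than 100 kb numbered 9 on each arm, 5 inner and 4 outer on scaffold 10 and 6 inner and 3 outer on scaffold 12.

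The longest peak-free interval of either arm lay on scaffold 12, from position 22020894 to 22239130, 12.2 Mb past the centromere end. It measured 218 kb. The next longest on this arm were 166 kb (13492904–13659094) and 144 kb (12721623–12865286). The first of these fell in the sparsest window, and the other lay just before it. On scaffold 10 the longest interval, 141 kb (31657168–31798232), ended 84.4 kb before the scaffold end. The others measured 130 kb (23055007–23184726) and 127 kb (21301646–21428997). In spite of its longest gap, the last 1 Mb of scaffold 10 held 68 and 73 summits, and that of scaffold 12 held 75 and 83.

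Peak widths hardly differed between the arms. The median was 375 bp in replicate 1 and 361 bp in replicate 2 on scaffold 10, and 369 and 372 bp on scaffold 12. The quartiles over both arms were 253.5 ± 0.707 and 538 ± 2.83 bp. The narrowest peaks were 179 and 177 bp, as they were on scaffolds 1, 3, 4 and 5 and on those without a listed centromere. The joint median of 368.5 ± 6.36 bp was close to the 366.5 ± 4.95 bp of scaffolds 1, 3, 4 and 5, a difference of 3 bp in replicate 1 and 1 bp in replicate 2. The share of wide peaks differed between the arms in both libraries, though on small counts. Peaks of at least 1 kb numbered 32 and 40 on scaffold 10 (3.38 ± 0.283%) and 20 and 23 on scaffold 12 (2.46 ± 0.131%), and the difference of scaffold 12 from scaffold 10 was −0.918 ± 0.151 percentage points (n = 2), or −0.493 ± 0.201 with arms starting 3 Mb past the centromere. The SD between the libraries does not cover the counting error of such small numbers. The shares of scaffolds 10 and 12 ranked 2 and 15 among the 20 stretches. Scaffolds 1, 3, 4 and 5 had 2.27 ± 0.0372%, and the scaffolds without a listed centromere had 2.70 ± 0.0209%.

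The widest peak shared by the libraries on scaffold 12 spanned 1933 bp in replicate 1 (15522729–15524661) and 1914 bp in replicate 2 (15522734–15524647). It had 181 and 247 fragments at the summit over a background of 26.2 and 33.8, so that its fold was only 6.70 and 7.13. The widest on scaffold 10 spanned 1604 bp (25874112–25875715) and 1629 bp (25874195–25875823), with 59 and 53 fragments and a fold of 6.12 and 5.73. Neither was among the peaks of highest enrichment on its arm.

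Peak strength was typical of the series in fragments and, over both arms together, slightly low in fold. The median number of fragments at the summit was 33 in both libraries on scaffold 10, and 32 and 33 on scaffold 12. The median fold enrichment was 4.57 and 4.78 on scaffold 10 and 4.61 and 5.06 on scaffold 12. Over both arms it was 4.72 ± 0.210, against 4.94 on the scaffolds without a listed centromere, a difference of −0.221 in replicate 1 and −0.216 in replicate 2. Against the 4.87 of scaffolds 1, 3, 4 and 5 the joint difference was −0.134 and −0.153. For scaffold 12 alone it was −0.0959 and 0.0401, which is a change of sign between the libraries. The folds of scaffolds 10 and 12 ranked 18 and 14 from the highest of the 20 stretches. The background had a median of 6.06 ± 0.198 fragments on scaffold 10 and 5.93 ± 0.251 on scaffold 12, which ranked 4 and 6 from the highest of the 20 stretches. It was above the 5.66 of scaffolds 1, 3, 4 and 5 by 0.397 and 0.339 fragments over both arms. Since the fold is taken over the background, the higher background and the lower fold are not separate observations.

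The most enriched peak of scaffold 10 was the same in both libraries. Its summit was at 20443384 in replicate 1, with 140 fragments and a fold of 17.2, and at 20443416 in replicate 2, with 149 fragments and a fold of 17.9. It lay in the sparse window from 7 to 8 Mb. In replicate 1 it was followed by summits at 23460444 (16.5-fold, and 16.1-fold in replicate 2) and 18740331 (16.4-fold and 16.2-fold). In replicate 2 it was followed by summits at 20273652 (17.8-fold, but 12.6-fold in replicate 1) and 19258699 (17.6-fold, but 12.2-fold in replicate 1). The first 3 peaks of replicate 1 thus kept their fold within 1 unit, whereas the latter pair rested on the higher values of replicate 2.

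On scaffold 12, summits at 16263144 (15.6-fold in replicate 1 and 18.7-fold in replicate 2) and 14231675 (15.6-fold and 18.3-fold) were among the first 3 of both libraries. The first in replicate 1 was at 24011241, near the scaffold end, with 83 and 84 fragments and a fold of 15.8 and 17.3. The first in replicate 2 was at 13176697, with 81 fragments and a fold of 18.9 in replicate 2, and 67 fragments and a fold of 15.5 in replicate 1. This summit was at the same base in both libraries and lay in the sparsest window of the arm, where its background was 3.33 fragments in replicate 2. All 4 were stronger in replicate 2.

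The gene *SURVIVIN*, which encodes a subunit of the chromosomal passenger complex that acts at centromeres with Borealin, INCENP and Aurora kinase, lies on the arm of scaffold 10, at 19259032–19260258, 6.001 Mb past the centromere end. It had 1 peak within 2 kb in each library, at its lower-coordinate edge. In replicate 1 this peak spanned 19258366–19259087, with 98 fragments, a fold of 12.2 and rank 26 of 1007 on the arm. In replicate 2 it spanned 19258371–19259033, with 156 fragments, a fold of 17.6 and rank 3 of 1118. The summits lay 265 and 333 bp before the locus, and the peaks overlapped it by 56 and 2 bp. No source used here gives the strand of the locus, so whether this edge is the start of the gene is not known. Counted from the edges of the peak at *SURVIVIN*, the next peaks before it were 6.57 and 6.59 kb away and overlapped between the libraries. After it, the next peak was 18.2 kb away in replicate 1 and 5.86 kb in replicate 2, where a peak of 22 fragments was listed in replicate 2 alone.

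Most members were found in both libraries. On scaffold 10, 826 of 1007 members of replicate 1 (82.0%, 95% Wilson interval 79.5 to 84.3%) shared at least 1 bp with a peak of replicate 2, and 827 of 1118 members of replicate 2 (74.0%, 71.3 to 76.5%) shared at least 1 bp with one of replicate 1. On scaffold 12 these were 688 of 845 (81.4%, 78.7 to 83.9%) and 679 of 901 (75.4%, 72.4 to 78.1%). Over all peaks of the libraries the shares were 82.2% and 77.9%, so the members of replicate 1 were close to the whole list and those of replicate 2, at 74.6% (72.6 to 76.4%), were below it. The intervals cover counting error only, and neighbouring peaks are not independent. Merged over the libraries, the arms held 2345 accessible regions, 1494 with a peak in both, 338 in replicate 1 alone and 513 in replicate 2 alone. No merged count is given here for all peaks, so these numbers do not set the arms apart from the series.

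Members seen in a single library were weaker and narrower. Those that overlapped had a median of 38.5 and 43 fragments at the summit and a width of 411 and 436 bp, and those that did not had 19 and 20 fragments and a width of 229 and 237 bp. The share that overlapped rose with the number of fragments in both libraries. It was 47.4% and 37.4% at 11 to 20 fragments, 78.1% and 63.0% at 21 to 30, 94.6% and 89.0% at 31 to 50, and 99.5% and 98.2% at 51 to 100. All 160 and 232 members with more than 100 fragments overlapped. The shares of replicate 2 were lower in each class up to 100 fragments. The same shares are not given here for all peaks, so they describe the members without setting them apart from the series. Where peaks overlapped, their summits lay a median of 38 and 37 bp apart.

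At the limit of 2 Mb, the first members of scaffold 12 were also found in both libraries, with summits 3.12 and 3.23 kb inside it and a fold of 7.73 and 8.97. The last peaks outside lay 1.12 and 1.14 kb before the limit, with a fold of 3.69 and 4.77. On scaffold 10 the first members lay 62.4 and 47.8 kb inside, with a fold of 3.20 and 3.42, and the last peaks outside lay 40.5 and 52.9 kb before the limit, with a fold of 2.93 and 4.24. At the far end, the last members of scaffold 10 lay 2.36 and 4.05 kb from the scaffold end, and those of scaffold 12 lay 12.4 and 14.5 kb from it.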

How the data were processed

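Nuclei of fresh leaves gave 2 ATAC-seq libraries of 1 group. The authors used fastp 0.20.0 for trimming and BWA-MEM 0.7.17 for alignment to their assembly. Duplicates and reads that map to several places were discarded by SAMtools 1.16.1 (-q 30), and MACS 3.0.0 called the peaks of each library (q threshold 0.01). The submitters' processing notes also name deepTools. For the genome size setting, read shift, control and organelle filter, nothing was given in the sources used here.

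The deposited fold enrichment is the ratio of fragments at the summit to the modelled background. The −log10 q and −log10 p, as deposited, also refer to the summit. The deposited score, a rescaled −log10 q, was not used further. Since the fold is (fragments + 1) / (background + 1) and p is a Poisson tail, both numbers were solved for; whole fragments gave back the −log10 p within a relative tolerance of 0.0001 for 100% of peaks. A background within 0.01 fragments of the genome-wide value was counted as being at that value.

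Scaffold lengths, centromere intervals and the *SURVIVIN* locus were read from the study's supplement. Peaks were counted at the summit. Values were computed per library and then averaged (mean ± SD, n = 2). Distances and windows were taken within an arm, with windows starting at its first base; quantities per part are medians over peaks. Regions were named by a rule: per arm the 2 fullest and 2 sparsest 1-Mb windows, the fullest 100-kb window, the 3 longest peak-free intervals, the 3 largest folds and the widest peak among overlapping peaks of each library, the members at either end, and *SURVIVIN*. The members, lists and alternatives were chosen with earlier results of these data known, and the middle of 5 parts after its counts were seen. Computation used scipy 1.17.1, pandas 2.3.3 and numpy 2.4.6 under Python 3.11.15, with plots by matplotlib 3.10.9, and was tested on simulated peak lists. The alternatives were −log10 q of at least 5, overlapping peaks, overlap of at least 50% of both peaks, peak midpoints, arms starting 1 or 3 Mb past the centromere, outer and inner of 3 parts, and each library alone. No sequence is shown, as no genome was used here.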

Additional observations from a re-analysis of the deposited data

How the results depend on the processing

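The alternatives were run for the densities, the outer-to-inner ratios, the median distance and the median width, and, after their values were seen, for 6 comparisons. The ranks, background and overlap comparisons were not rerun. With a −log10 q of at least 5, the density fell to 52.5 summits per Mb on scaffold 10 and 54.9 on scaffold 12, the median distance rose to 10.5 kb, the median width to 408 bp and the outer-to-inner ratio of scaffold 12 to 1.14. With only members shared by the libraries (overlap of at least 1 bp), these were 49.7 and 52.5 summits per Mb, 11.2 kb, 423.5 bp and 1.15. With overlap of at least 50% of both peaks, they were 45.1 and 47.6 summits per Mb, 12.3 kb, 427.5 bp and 1.18, and the outer-to-inner ratio of scaffold 10 was 1.07. The ratio of scaffold 10 was 1.06 with arms starting 3 Mb past the centromere. That of scaffold 12 was 1.01 from 1 Mb, where replicate 2 was below 1 (0.998), 1.18 from 3 Mb, and 1.02 for the outer against the inner of 3 equal parts. The sets with a stricter threshold or overlap hold fewer peaks by construction; the cause of the other changes was not tested. With each library alone, the density was 60.6 to 67.3 on scaffold 10 and 65.0 to 69.3 on scaffold 12, and the ratios 1.09 to 1.12 and 1.05 to 1.08. The next ranges hold the mean of the libraries under each alternative, or the value of 1 library where it was used alone. The density of the middle of 5 parts of scaffold 12, relative to the rest of the arm, was between 0.574 and 0.646 over 8 alternatives. The difference between the arms in variance over mean of the window counts lay between 2.04 and 4.07. That in the share of peaks of at least 1 kb lay between −1.57 and −0.493 percentage points. The outer-minus-inner differences on scaffold 12 lay between 25.5 and 61.5 bp in width and between 0.455 and 0.824 in fold. The density of both arms exceeded that of scaffolds 1, 3, 4 and 5 by 2.72 to 6.53 summits per Mb over 6 alternatives. Values of single libraries within an alternative went beyond these ranges. Toward no difference, they reached 0.659 for the middle part, 1.15 for variance over mean and −0.351 percentage points for wide peaks. They reached 11 bp in width, 0.304 in fold and 2.51 summits per Mb in density. No paired analysis was possible because both libraries belong to 1 group. Read depth is unknown. Regions under 11 fragments at the summit are not covered, and the limit lies higher where the local background is higher.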

Other observations

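On the other side of the centromere, the short ends of both scaffolds also held peaks. The end of scaffold 10, 0.965 Mb long, held 58 summits in replicate 1 and 65 in replicate 2, or 63.8 ± 5.13 per Mb (n = 2). The end of scaffold 12, 0.357 Mb long, held 22 and 26 summits, or 67.3 ± 7.93 per Mb. Within the first 2 Mb past the centromere, the density was 41.0 ± 7.07 summits per Mb on scaffold 10 and 56.0 ± 3.54 on scaffold 12, and each library had the lower value on scaffold 10.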
